A study of Mus musculus with 6 samples.

Results

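The receptors described here are 9 G protein-coupled receptors of lung fibroblasts that signal mainly through cyclic AMP (cAMP): the VIP and PACAP receptors Vipr1, Vipr2 and Adcyap1r1, the prostanoid receptors Ptger2, Ptger3, Ptger4 and Ptgir, the beta-adrenergic receptor Adrb1 and the adenosine receptor Adora2b. They were chosen by name and function from the 43430 genes of a deposited count table, with earlier results of the same comparison known, so their own differences are given as a description and support nothing further. RNA was sequenced from PDGFRA-positive fibroblasts, sorted by flow cytometry from whole lungs of male C57BL/6J mice 9 to 11 weeks old. One group had breathed 10% CO2 for 10 days (hypercapnia, libraries M4, M5 and M6) and the other room air (naive mice, libraries M1, M2 and M3). Each library pooled the cells of 3 mice, 9 mice a group, so the spread between libraries is a spread between pools. The labels write PDGFRA for the room air cells and PDGFR for the hypercapnia cells, read here as the same sort. PDGFRA marks most but not all fibroblasts of the lung, and the sort was not specific to a fibroblast subtype.

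Vasoactive intestinal peptide (VIP) and the related peptide PACAP, prostaglandin E2, prostacyclin, noradrenaline and adenosine reach fibroblasts from nerves, epithelium, vessels and the fibroblasts themselves. Most of their receptors in this set couple to the stimulatory G protein, which activates adenylyl cyclase. The cAMP formed acts on protein kinase A and on EPAC exchange factors, and in lung fibroblasts this pathway is known for restraining proliferation, contraction and collagen production. Ptger3 differs in that it couples mainly to inhibitory G proteins and lowers cAMP.

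Total counts ran from 8999780 to 10198336 per library. Values are in CPM, counts scaled to the size of the library and, by TMM factors, to its composition. Pdgfra had 3359, 3013 and 2526 CPM in hypercapnia (M4, M5 and M6), and 3700, 3651 and 3317 CPM in room air (M1, M2 and M3). Epithelial and endothelial transcripts were also present. The 4 airway epithelial markers summed to 146 to 350 CPM in hypercapnia and 322 to 550 CPM in room air. All 4 had a negative log2 fold change (median -0.68). The 6 alveolar type 2 markers summed to 186 to 334 CPM in hypercapnia and 113 to 256 CPM in room air. All 6 had a positive log2 fold change (median 0.41). By edgeR 0 of these epithelial markers were called. The 18 endothelial markers, all detected, summed to between 2888 and 4727 CPM in hypercapnia and between 872 and 2959 CPM in room air. M3 was the lowest room air library for each of the 18. All 18 had a positive log2 fold change of hypercapnia over room air, with a median of 0.88, and 0 had an adjusted p under 0.05 by edgeR. For 8 of the 18 the groups did not overlap, where 18.0% of all tested genes had no overlap. In each group 1 library, M4 in hypercapnia and M1 in room air, had the highest summed level of the cAMP-response (CREB) target list, which is made largely of immediate early genes. These sums were 12692, 2464 and 4703 CPM in M4, M5 and M6, and 14710, 8559 and 6118 CPM in M1, M2 and M3. Of the 6 macrophage and leukocyte markers Adgre1 and Marco were at 0 in every library, and Ptprc had counts in M1 alone, at 0.236 CPM. Itgam had 1 count, in M5. Lyz2 had between 21.3 and 58.6 CPM in hypercapnia and between 10.1 and 50.7 CPM in room air. Cd68 had between 0.636 and 3.04 CPM over all libraries.

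Promoters of 3 of the receptors are shown because these were the members whose hypercapnia and room air libraries did not overlap in expression. All 9 receptors had a window in RefSeq (GRCm38.p6, the same assembly as the mm10 build of the counts), each running from 250 bases before to 50 bases after the start of transcription. Capitals mark GC boxes (GGGCGG on either strand) and, in Adrb1, also the core of the cAMP response element (TGACG on either strand). The windows lie on the plus strand at chr12:116077476-116077775 (Vipr2), chr6:55451728-55452027 (Adcyap1r1) and chr19:56721867-56722166 (Adrb1).
Vipr2: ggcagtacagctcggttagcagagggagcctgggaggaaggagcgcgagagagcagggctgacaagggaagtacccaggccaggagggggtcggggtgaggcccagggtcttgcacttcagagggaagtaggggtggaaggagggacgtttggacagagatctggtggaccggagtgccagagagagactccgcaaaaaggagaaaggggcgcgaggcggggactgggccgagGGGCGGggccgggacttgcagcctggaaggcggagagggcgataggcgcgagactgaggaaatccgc
Adcyap1r1: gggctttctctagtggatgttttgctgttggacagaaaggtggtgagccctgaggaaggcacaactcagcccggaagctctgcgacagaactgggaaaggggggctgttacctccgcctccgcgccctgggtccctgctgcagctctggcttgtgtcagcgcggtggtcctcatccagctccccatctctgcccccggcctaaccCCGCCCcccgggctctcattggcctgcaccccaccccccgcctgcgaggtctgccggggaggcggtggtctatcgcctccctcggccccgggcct
Adrb1: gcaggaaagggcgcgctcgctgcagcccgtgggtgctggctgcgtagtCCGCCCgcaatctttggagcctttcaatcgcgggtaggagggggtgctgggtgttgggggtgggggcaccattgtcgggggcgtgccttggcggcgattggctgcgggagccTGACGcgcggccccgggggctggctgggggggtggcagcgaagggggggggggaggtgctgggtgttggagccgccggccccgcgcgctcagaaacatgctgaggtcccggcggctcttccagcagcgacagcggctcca

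Vipr2 held a single GC box, starting at position -17 from the start of transcription, and Adcyap1r1 a single GC box at position -45. Adrb1 held a GC box at position -202 and the TGACG core at position -90. Among the 9 receptors a GC box was found in all but Ptger2, against 35.7% of the 32851 RefSeq promoter windows of the same length. The TGACG core was found in Vipr1 and Adrb1, against 20.8% of all windows, and the E-box CACGTG, searched on both strands, in none of the 9, against 7.15%. In Vipr1 the TGACG match shares a base with a GC box, and in Ptger4 neighbouring GC boxes share a base. An absent match says only that those letters are absent from the window. Ptger2 also stood apart in composition. Its window was 37.7% G and C with 3 CpG dinucleotides, while the other 8 receptors had between 62% and 73.7% G and C and between 6 and 35 CpG dinucleotides. The median over all windows was 52.7% with 7 CpG dinucleotides.

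Vipr2, which encodes the VIP and PACAP receptor VPAC2, had the highest level per length of the 9 receptors and was the only one to pass the test, and it fell in hypercapnia. It had 80.3, 77.3 and 62.1 CPM in hypercapnia (M4, M5 and M6), against 189, 184 and 205 CPM in room air (M1, M2 and M3). The lowest room air library was more than double the highest hypercapnia library, and the values within each group were close. The means were 73.3 ± 9.75 CPM in hypercapnia and 193 ± 11.1 CPM in room air (SD, n = 3 each), a level 2.63-fold lower in hypercapnia. The log2 fold change was -1.40 ± 0.13 (SE), with an adjusted p of 0.000848 by edgeR's quasi-likelihood test over all 13005 tested genes. By p-value it ranked 6 among these genes. Of the 8 receptors above the count filter 1 was called, in a comparison where 1.22% of all tested genes were called at an adjusted p under 0.05 (0.700% lower and 0.523% higher). Since the receptors were chosen with this comparison known, nothing is read from that share.

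The gene, ENSMUSG00000011171, lies on the plus strand of chromosome 12 from 116077726 to 116146261, with 17 merged exons and no exonic base shared with another gene model. The call was kept under each of the 16 other settings tried, including the omission of any single library. Over these settings the log2 fold change lay between -1.50 and -1.29 and the largest adjusted p was 0.0199, without M2. Adjustment for the endothelial marker level gave -1.38 ± 0.15 (adjusted p = 0.00087), and the analysis without M1 and M4, the libraries rich in immediate early transcripts, gave -1.50 ± 0.16 (adjusted p = 0.000724).

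**Figure D1:**
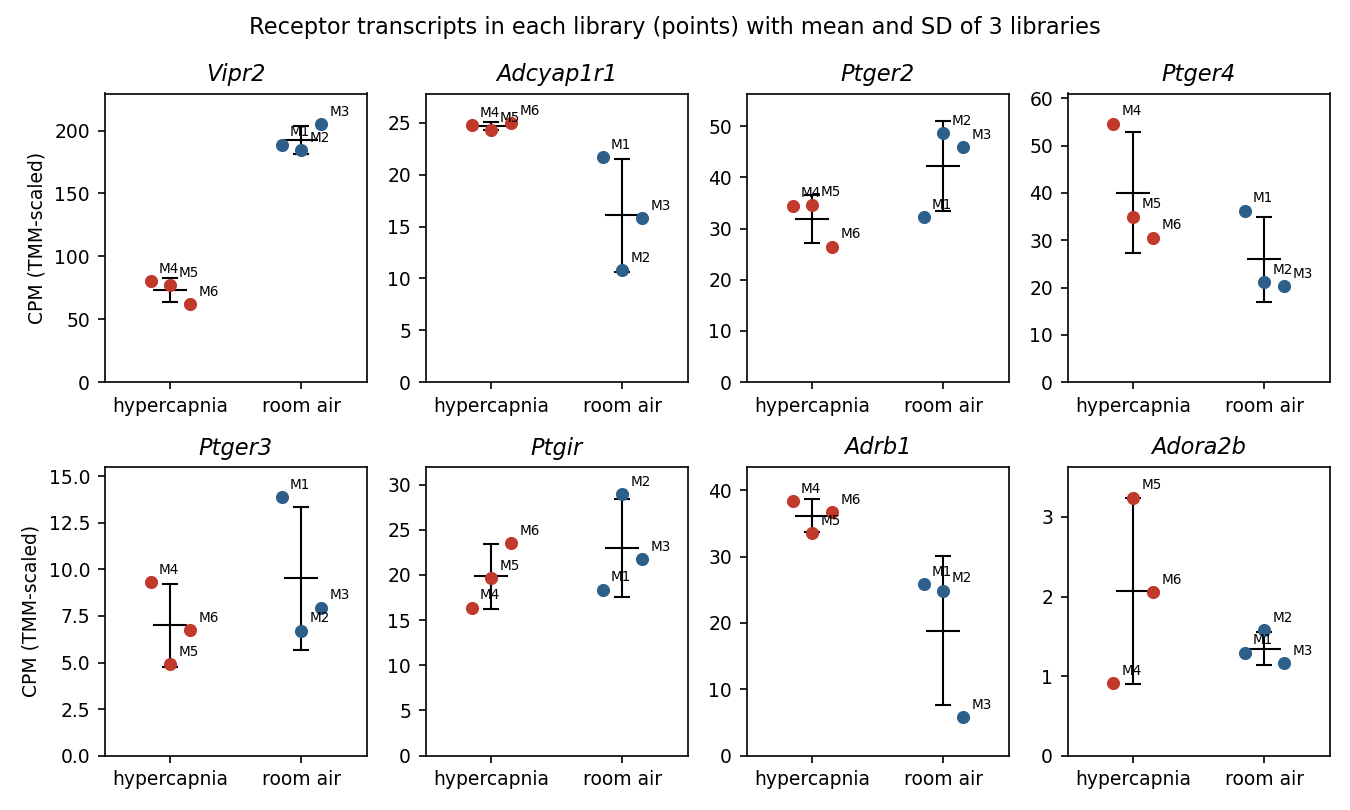
CPM (linear axes from 0) of the 8 receptors above the count filter in each of the 3 hypercapnia libraries (M4 to M6, left) and 3 room air libraries (M1 to M3, right), with bars for mean ± SD. Vipr2 shows the widest separation, 62.1 to 80.3 CPM in hypercapnia and 184 to 205 CPM in room air, while Ptger2, Ptger3, Ptger4, Ptgir and Adora2b overlap between the groups.

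Alveolar fibroblast markers, a name for genes of the fibroblasts around the air sacs, differed between the same libraries. The 9 markers, all detected, summed to between 15028 and 17302 CPM in hypercapnia and between 20021 and 20514 CPM in room air. All 9 were on the negative side. By edgeR 6 of the 9 fell, where 0.700% of all tested genes did. For 7 of the 9 the groups did not overlap, where 18.0% of all tested genes had no overlap. On the log2 scale their differences ran from -0.95 to -0.05, and the middle value was -0.57. Of 9 markers of adventitial fibroblasts, the fibroblasts around vessels and airways, 8 were on the positive side. Of these 1, Il33, rose (log2 fold change 1.07 ± 0.21, edgeR adjusted p = 0.042), where 0.523% of all tested genes did. The median over the 9 was 0.39 on the log2 scale. Against 1000 counts of the alveolar fibroblast markers in the same library, Vipr2 had 5.02, 5.15 and 3.59 counts in M4, M5 and M6, and 9.42, 9.13 and 10.0 counts in M1, M2 and M3. On this ratio, too, hypercapnia and room air libraries were fully separate. Most of the marker counts came from Inmt and Npnt, with log2 fold changes of -0.14 and -0.44 beside the list median of -0.57. The ratio therefore mainly reflects those genes. In bulk samples, fewer cells of a type and less RNA per cell cannot be told apart. Smooth muscle, which is known to carry VPAC2, was represented by 8 markers, all detected, whose sum was 262 to 365 CPM in hypercapnia and 374 to 433 CPM in room air. Against 1000 counts of those markers Vipr2 had 220, 294.9 and 182 counts in M4, M5 and M6, and 487, 426 and 549 counts in M1, M2 and M3. Tagln was the largest part of the smooth muscle sum, and 67.9% of its exonic bases are shared with other gene models. The part of these cell types in the difference of Vipr2 was not tested beyond these ratios.

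Vipr1, which encodes VPAC1, the other receptor with high affinity for VIP, was listed at 0 counts in every library. At this depth a count of 0 allows up to 3 counts per library, between 0.281 and 0.353 CPM. The gene was therefore below the filter and not tested.

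Adcyap1r1, which encodes the PACAP-preferring receptor PAC1, differed in the other direction from Vipr2 without passing the test. It had 24.8, 24.3 and 24.98 CPM in hypercapnia (M4, M5 and M6), against 21.7, 10.8 and 15.8 CPM in room air (M1, M2 and M3). The hypercapnia libraries were nearly equal and lay above all 3 room air libraries, which were themselves far apart. The log2 fold change was 0.62 ± 0.24 (SE, edgeR adjusted p = 0.299), and it was 0.40 without M2 and 0.89 without M1. The groups of 3 of the 8 tested receptors did not overlap (Vipr2, Adcyap1r1 and Adrb1), where 18.0% of all tested genes had no overlap.

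None of the 4 prostanoid receptors passed the test. By edgeR 1 of the 4 had an unadjusted p under 0.05, as did 12% of all tested genes (1567), and DESeq2 and limma-voom called 0 of them. Ptger2 and Ptger4 encode the prostaglandin E2 receptors EP2 and EP4, which raise cAMP. Ptger2 had 34.5, 34.7 and 26.5 CPM in hypercapnia (M4, M5 and M6), against 32.3, 48.6 and 45.9 CPM in room air (M1, M2 and M3), so that M1 lay among the hypercapnia libraries. Its log2 fold change was -0.41 ± 0.19 (SE, edgeR adjusted p = 0.42), and -0.64 without M1 and M4. In the exons of Ptger2, 4.74% of the bases are shared with gene models on the other strand.

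Ptger4 was the prostanoid receptor with the smallest p. It had 54.6, 34.98 and 30.5 CPM in M4, M5 and M6, against 36.3, 21.2 and 20.3 CPM in M1, M2 and M3. M4 and M1 were the highest library of their groups, the same libraries that had the highest immediate early gene level, and the room air library M1 exceeded M5 and M6. The log2 fold change was 0.63 ± 0.27 (edgeR adjusted p = 0.377). It was 0.64 ± 0.21 (0.216) without M1 and M4, 0.85 ± 0.20 (0.0611) with the immediate early gene level as a covariate and 0.16 ± 0.27 (0.834) after adjustment for the endothelial marker level. For Ptger4, 16.5% of exonic bases are shared with Ttc33 and another gene model on the other strand, and the strand setting of the counting is not given in the sources used here.

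Ptger3, which encodes the inhibitory prostaglandin E2 receptor EP3, had 9.33, 4.91 and 6.74 CPM in M4, M5 and M6, against 13.9, 6.71 and 7.94 CPM in M1, M2 and M3. Its log2 fold change was -0.44 ± 0.36 (edgeR adjusted p = 0.713) and lay between -0.78 and -0.07 over the other settings. Ptgir, which encodes the prostacyclin receptor, had 16.4, 19.7 and 23.5 CPM in M4, M5 and M6, against 18.4, 29.0 and 21.7 CPM in M1, M2 and M3, with a log2 fold change of -0.21 ± 0.21 (edgeR adjusted p = 0.782). For both genes the groups overlapped. For a difference of this size the number of libraries limits what could be detected, and a p above the threshold does not show equal levels.

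Adrb1, which encodes the beta1-adrenergic receptor, had 38.3, 33.5 and 36.7 CPM in hypercapnia (M4, M5 and M6), against 25.8, 24.9 and 5.83 CPM in room air (M1, M2 and M3). The hypercapnia libraries lay above all room air libraries, and M3 was far below the rest. The log2 fold change was 0.94 ± 0.40 (SE, edgeR adjusted p = 0.372), and it was 0.51 ± 0.17 (adjusted p = 0.202) without M3. M3 was also the library with the lowest endothelial marker level, a mean of 5.08 log2 CPM where the other 5 libraries had 6.56 to 7.51. The levels of pericyte (1.945 log2 CPM), alveolar type 2 (3.035) and macrophage and leukocyte markers (0.396) were lowest in M3 as well. Those of smooth muscle, airway epithelial and mesothelial markers were not. Against 1000 counts of the 18 endothelial markers in the same library, Adrb1 had 8.11, 9.21 and 12.7 counts in M4, M5 and M6, and 8.72, 9.86 and 6.68 counts in M1, M2 and M3, with overlap between the groups. After adjustment for the endothelial marker level its log2 fold change was 0.12 ± 0.26 (adjusted p = 0.87). That marker level itself leaned towards hypercapnia, at 7.51, 7.17 and 6.80 log2 CPM in M4, M5 and M6. In M1, M2 and M3 it was 6.82, 6.56 and 5.08 log2 CPM. The adjustment can therefore also remove part of a difference between the groups, here and for the other genes given with it. Whether endothelial cells account for the Adrb1 difference was not tested.

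Adora2b, which encodes the low-affinity adenosine receptor A2B, was the least abundant of the tested receptors, with 8, 33 and 22 counts in M4, M5 and M6 and 11, 15 and 11 counts in M1, M2 and M3. These correspond to 0.91, 3.24 and 2.06 CPM in hypercapnia and 1.3, 1.57 and 1.17 CPM in room air. M4 was the lowest of all 6 libraries and M5 the highest. The log2 fold change was 0.62 ± 0.62 (edgeR adjusted p = 0.778), an error as large as the difference.

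**Figure D2:**
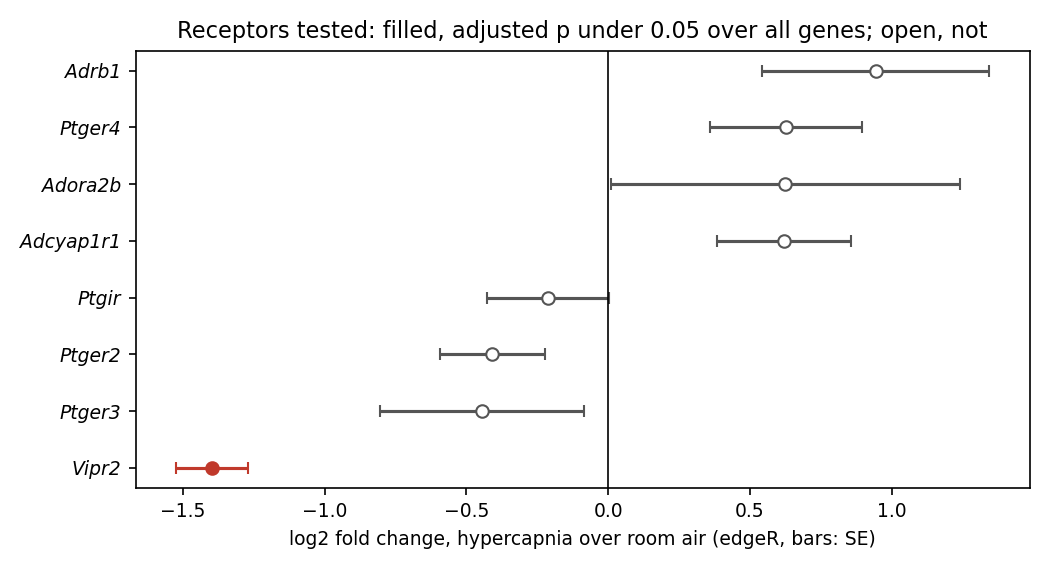
Log2 fold change of hypercapnia over room air by edgeR (x axis, bars for SE) for the 8 receptors above the count filter, with a filled point where the adjusted p over all tested genes was under 0.05. Vipr2, at -1.40 ± 0.13, is the filled point, and the other 7 lie between -0.44 and 0.94.

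The tested receptors did not move together. Of the 8, 4 had a positive and 4 a negative log2 fold change, with a median of 0.20 beside 0.01 over all tested genes. In hypercapnia the positive side held Adrb1, Ptger4, Adora2b and Adcyap1r1, and the negative side Vipr2, Ptger3, Ptger2 and Ptgir, so that both the VIP and PACAP receptors and the prostanoid receptors were split.

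Levels of different receptors were compared per merged exon length, as length-scaled abundance in TPM, which adds up to the same total in every library. In room air Vipr2, at 163 ± 12.6 TPM (SD, n = 3), stood far above Ptger2 (30.7 ± 6.83), Ptgir (26.0 ± 6.27), Adrb1 (20.8 ± 12.3) and Ptger4 (14.6 ± 4.73). Adcyap1r1 (9.16 ± 2.96), Ptger3 (6.28 ± 2.40) and Adora2b (2.74 ± 0.413) followed. Apart from the first step, neighbours in this order down to Ptger3 differed by less than the sum of their SDs. In hypercapnia Vipr2 was still first, at 65.3 ± 9.05 TPM, and Adrb1 was second at 42.5 ± 1.24 TPM, with every Vipr2 library (55.0 to 71.9 TPM) above every Adrb1 library (41.1 to 43.5 TPM). Ptger2 (24.4 ± 3.89), Ptger4 (23.8 ± 6.92) and Ptgir (23.7 ± 4.53) lay within their SDs of each other on merged exon lengths, followed by Adcyap1r1 (14.9 ± 0.422), Ptger3 (4.85 ± 1.36) and Adora2b (4.53 ± 2.70). On the length of the longest transcript the hypercapnia means were 26.6 TPM for Ptger2, 32.5 TPM for Ptger4 and 18.5 TPM for Ptgir, so the order of these 3 depends on the length used. Among 42462 genes with an annotated length, Vipr2 ranked 2658 from the top in hypercapnia and 905 in room air.

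The make-up of the whole receptor set differed between the groups, most of all in the share of Vipr2. Vipr2 contributed 31.9 ± 2.35% of the summed TPM of the 9 receptors in hypercapnia and 59.6 ± 4.88% in room air (SD, n = 3 each). The sum itself was 211, 213 and 188 TPM in M4, M5 and M6, against 271, 277 and 272 TPM in M1, M2 and M3. Without Vipr2 the remaining receptors summed to 142, 141 and 133 TPM in M4, M5 and M6, against 115, 122 and 94.7 TPM in M1, M2 and M3. Adrb1 took 20.9 ± 1.77% of the sum in hypercapnia and 7.60 ± 4.47% in room air, and Ptger4 took 11.6 ± 2.90% in hypercapnia and 5.36 ± 1.78% in room air. These shares are sums over the same values as above and carry no test.

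**Figure D3:**
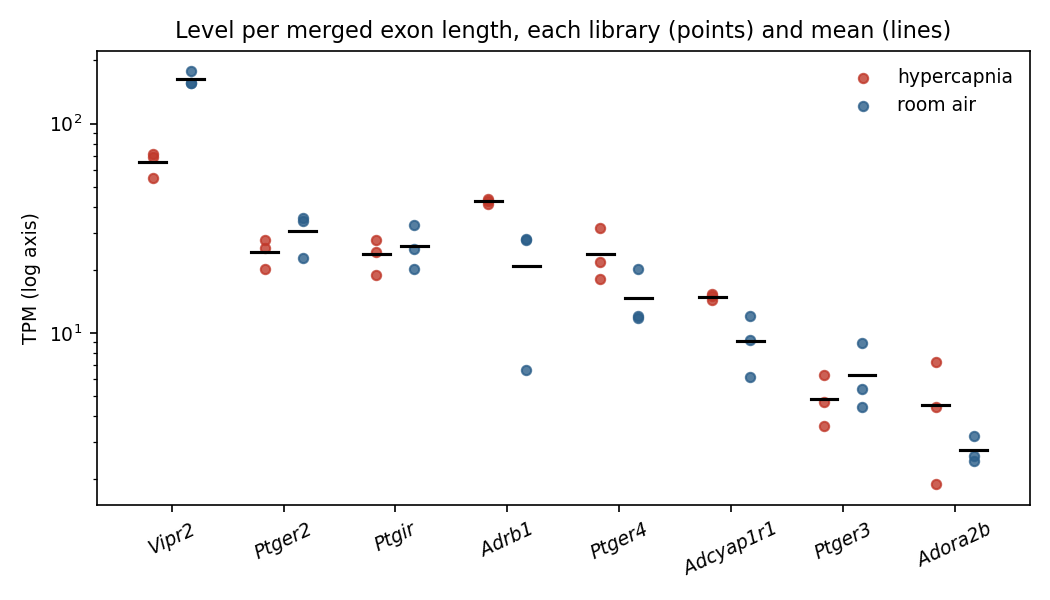
TPM on a log axis for the 8 receptors with counts, ordered by their room air mean, with hypercapnia left of room air for each gene, points for libraries and lines for means. Vipr2 lies highest in both groups, at 65.3 TPM in hypercapnia and 163 TPM in room air, and Adrb1 has 42.5 TPM in hypercapnia and 20.8 TPM in room air.

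**Figure D4:**
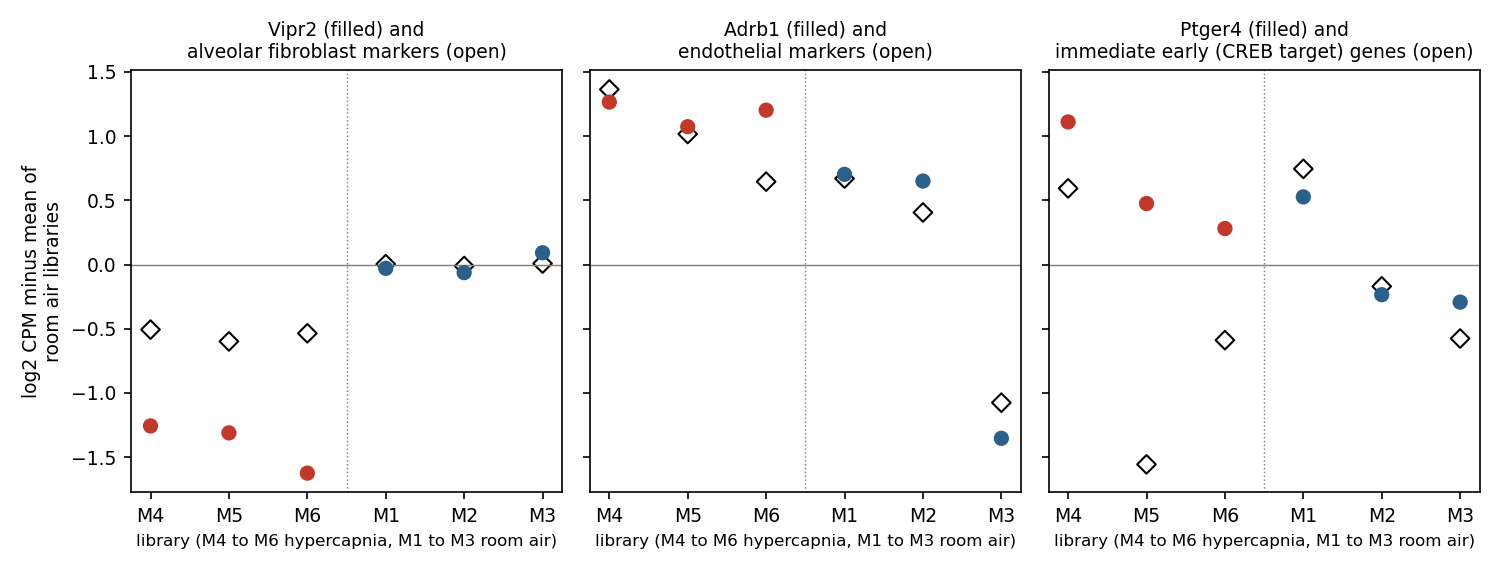
Log2 CPM of Vipr2, Adrb1 and Ptger4 (filled points) and the mean log2 CPM of a marker list (open diamonds) in each library, both minus their room air mean, with hypercapnia libraries M4 to M6 left of room air libraries M1 to M3. Vipr2 lies below the alveolar fibroblast markers in all hypercapnia libraries, Adrb1 and the endothelial markers are both lowest in M3, and Ptger4 and the immediate early genes are both highest in M4 and M1 within their groups.

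The genes whose pattern over the 6 libraries was most like that of Vipr2, by Pearson's r of log2 CPM among 10752 genes averaging 5 CPM or more, were Emp2 (r = 0.998), Lims1 (0.994) and Ablim3 (0.993). In all, 124 genes had an r of at least 0.95. These values share the 6 libraries and the difference between the groups, and are given as a description. Ablim3 fell, at 97.0, 101 and 92.3 CPM in M4, M5 and M6 against 173, 160 and 178 CPM in M1, M2 and M3 (log2 fold change -0.82 ± 0.11, edgeR adjusted p = 0.00643). Emp2 (-0.46 ± 0.10, adjusted p = 0.0682) and Lims1 (-0.37 ± 0.10, adjusted p = 0.135) did not pass.

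The rest of the pathway was described by 10 lists of ligands, related receptors, enzymes and effectors, chosen with earlier results known. Of 94 tested genes 5 were called (5.32%, beside 1.22% of all tested genes), with 2 higher and 3 lower, and the median log2 fold change was 0.02 beside 0.01 over all genes. The 5 were Adcy7 and Rapgef3, which rose, and Adm, Adra1a and Grk5, which fell. All 5 calls were lost when M2, M5 or M6 was left out, omissions that left 24, 27 and 42 calls among all genes in place of 159. The log2 fold changes then lay between -1.26 and -1.01 for Adm, -0.87 and -0.79 for Adra1a, -0.61 and -0.60 for Grk5, 0.64 and 0.75 for Adcy7, and 0.75 and 0.94 for Rapgef3.

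Among the peptide ligands, Vip had 0 counts in every hypercapnia library and 0, 10 and 3 counts in M1, M2 and M3, and Adcyap1, the PACAP gene, was listed at 0 in every library. Of the other class B receptors, their ligands and their accessory proteins 6 of 21 were tested. Of these 1 fell, where 0.700% of all tested genes did. Adm, which encodes adrenomedullin, a vasodilator peptide that raises cAMP, had 74.7, 36.9 and 57.4 CPM in M4, M5 and M6, against 105, 155 and 139 CPM in M1, M2 and M3. Its groups did not overlap, and the log2 fold change was -1.24 ± 0.23 (edgeR adjusted p = 0.0329). The call was lost without M2 (adjusted p = 0.201), M5 (0.0963) or M6 (0.134) and with robust dispersion (0.101). The adrenomedullin receptor gene Calcrl (0.89 ± 0.35, edgeR adjusted p = 0.33) and its partner Ramp2 (0.99 ± 0.28, adjusted p = 0.153) did not pass, and both were lowest in M3, where endothelial markers were lowest. In Ramp2, 33.4% of exonic bases are shared with Vps25.

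The other adrenergic receptors answer the same hormones as Adrb1, the alpha receptors through other G proteins. Of 7 such receptors 3 were tested and 1, Adra1a, fell, where 0.700% of all tested genes did. The groups did not overlap for any of the 3, where 18.0% of all tested genes had no overlap. The 4 untested ones, Adra1d, Adra2a, Adra2b and Adra2c, had at most 12 counts in a library. Adra1a, which couples to calcium release, had 136, 123 and 109 CPM in M4, M5 and M6, against 205, 247 and 218 CPM in M1, M2 and M3. Its log2 fold change was -0.86 ± 0.12 (edgeR adjusted p = 0.0102), and the call was lost without M2 (adjusted p = 0.078), M5 (0.0746) or M6 (0.0554). Adra1b (-0.98 ± 0.28, adjusted p = 0.154) and the beta3-adrenergic receptor gene Adrb3 (-0.28 ± 0.12, adjusted p = 0.36), with 24.9% of exonic bases shared with another gene model, did not pass.

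Prostanoid synthesis and clearance genes did not pass, with 0 of 12 called by edgeR, 5 of 12 at an unadjusted p under 0.05 (12% of all tested genes), 2 called by DESeq2 (Pla2g4a and Ptges) and 1 by limma-voom (Hpgd). Ptgis, which encodes prostacyclin synthase and was the most abundant of them in CPM, stood at 778 ± 57.2 CPM in hypercapnia and 783 ± 22.7 CPM in room air (SD, n = 3). Ptgs2, the inducible cyclooxygenase, had 115, 9.24 and 16.9 CPM in M4, M5 and M6, and 115, 17.3 and 10.6 CPM in M1, M2 and M3, so that 1 library of each group, again M4 and M1, held most of its transcripts. Ptges, the inducible prostaglandin E synthase, stood at 109 ± 11.8 CPM in hypercapnia and 159 ± 19.3 CPM in room air (-0.55 ± 0.13, edgeR adjusted p = 0.081), and Ptgs1, the constitutive cyclooxygenase, at 68.8 ± 9.62 CPM in hypercapnia and 47.1 ± 11.8 CPM in room air (0.55 ± 0.18, adjusted p = 0.212).

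Hpgd, which encodes the enzyme that inactivates prostaglandins, had the largest positive log2 fold change of the prostanoid list. It had 356, 240 and 236 CPM in M4, M5 and M6, against 142, 128 and 51.7 CPM in M1, M2 and M3, with no overlap between the groups (1.37 ± 0.31, edgeR adjusted p = 0.0752). M3, low in endothelial markers, was its lowest library. Against 1000 counts of the endothelial markers Hpgd had 75.3, 66.0 and 81.6 counts in M4, M5 and M6, and 48.0, 50.7 and 59.3 counts in M1, M2 and M3. Its log2 fold change was 1.04 ± 0.18 without M3 (adjusted p = 0.0224) and 0.62 ± 0.14 after adjustment for the endothelial marker level (adjusted p = 0.0488). It was called in 7 of the 16 other settings and not in the other 9, among them DESeq2 (adjusted p = 0.0932), robust dispersion (0.363) and the omission of M2 (0.247), M5 (0.186) or M6 (0.149).

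Of the other prostanoid receptors 0 of 3 were called by edgeR, DESeq2 or limma-voom and 2 had an unadjusted p under 0.05 by edgeR, as did 12% of all tested genes. The smallest p was that of Ptgfr, the prostaglandin F receptor, at 94.3 ± 10.8 CPM in hypercapnia and 76.1 ± 1.06 CPM in room air (0.31 ± 0.12, edgeR adjusted p = 0.291). Of 10 tested genes of adenosine handling 0 were called by edgeR or limma-voom, 1 by DESeq2 (Entpd1), and 2 had an unadjusted p under 0.05, beside the same 12% of all tested genes. Entpd1, an ectoenzyme that degrades ATP on the way to adenosine, stood at 53.2 ± 14.1 CPM in hypercapnia and 25.05 ± 9.49 CPM in room air (1.09 ± 0.28, edgeR adjusted p = 0.106), and its log2 fold change was 0.43 ± 0.19 after adjustment for the endothelial marker level. Nt5e, which makes extracellular adenosine, was low, at 1.85 ± 0.974 CPM in hypercapnia and 1.89 ± 0.937 CPM in room air.

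Downstream of the receptors, the stimulatory G protein gene Gnas stood at 217 ± 2.82 CPM in hypercapnia and 223 ± 11.9 CPM in room air (SD, n = 3), with 22% of its exonic bases shared with other gene models. Of 12 tested G protein and adenylyl cyclase genes 1 rose, where 0.523% of all tested genes did. Adcy7, an adenylyl cyclase, had 133, 154 and 134 CPM in M4, M5 and M6, against 102, 81.6 and 72.7 CPM in M1, M2 and M3 (0.72 ± 0.14, edgeR adjusted p = 0.041). Its call was lost without M2 (adjusted p = 0.231), M3 (0.075), M4 (0.0539), M5 (0.196) or M6 (0.112). After adjustment for the endothelial marker level it was also lost, at 0.53 ± 0.15 (0.102). Of 17 cAMP effector genes 1 rose, beside the same 0.523% of all tested genes. This was Rapgef3, which encodes the cAMP-activated exchange factor EPAC1. It had 36.3, 50.2 and 39.6 CPM in M4, M5 and M6, against 24.0, 23.6 and 20.2 CPM in M1, M2 and M3 (0.89 ± 0.17, edgeR adjusted p = 0.036). Of the 6 omissions of 1 library, the one of M4 kept its call, and those of M1 (adjusted p = 0.0661), M2 (0.163), M3 (0.0691), M5 (0.172) and M6 (0.0983) did not. After adjustment for the endothelial marker level the log2 fold change was 0.79 ± 0.22 (adjusted p = 0.0924), about as large with a wider error. For Rapgef3, 6.11% of its exonic bases are shared with antisense gene models.

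A list of 8 genes held receptor kinases and arrestins, which switch off activated receptors, and the sorting nexin gene Snx27. Of these 8, 1 fell, where 0.700% of all tested genes did. Grk5, a receptor kinase, had 118, 114 and 115 CPM in M4, M5 and M6, against 184, 179 and 167 CPM in M1, M2 and M3 (-0.61 ± 0.10, edgeR adjusted p = 0.0222). The values within each group were close and did not overlap, and the call was lost without M1 (adjusted p = 0.0692), M2 (0.13), M5 (0.137) or M6 (0.0872) and without M1 and M4 (0.0665). Of 12 tested cAMP phosphodiesterases, which degrade cAMP, 0 were called by edgeR, DESeq2 or limma-voom, and 1 had an unadjusted p under 0.05 (12% of all tested genes), Pde7b (0.34 ± 0.12, edgeR adjusted p = 0.258). Of 11 tested CREB target genes 0 were called by any of the 3 tools and 0 had an unadjusted p under 0.05 (12% of all tested genes). Their median log2 fold change was -0.39, the smallest p was that of Rgs2 (-0.35 ± 0.23, edgeR adjusted p = 0.605), and the spread between the libraries of a group was wide, as given above for the list's sum.

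**Figure D5:**
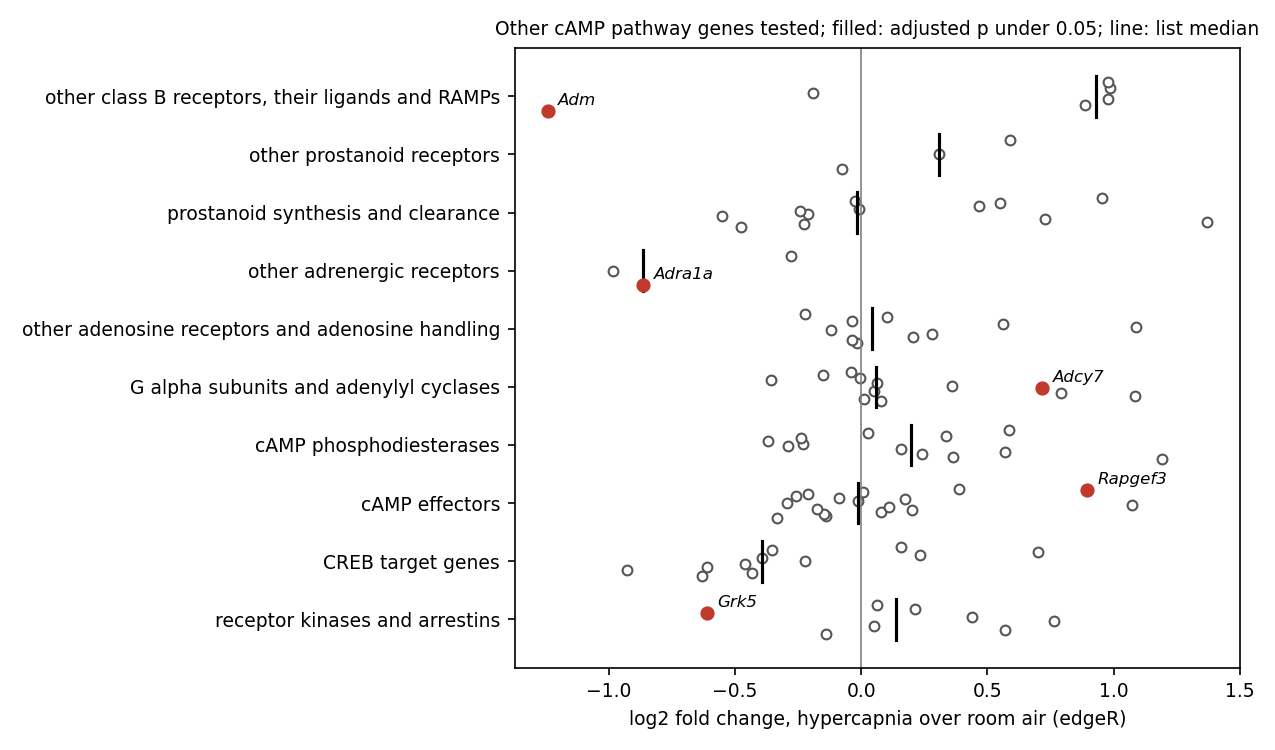
Log2 fold change of hypercapnia over room air by edgeR (x axis) for the 94 tested genes of the 10 pathway lists (rows), with filled points for genes called at an adjusted p under 0.05 and a line for the median of each list. The 5 called genes, Adm, Adra1a, Adcy7, Rapgef3 and Grk5, lie in 5 different lists.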

How the data were processed

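The authors deposited a single table of raw counts, whole numbers for 43430 Ensembl gene IDs in 6 columns, not normalized. TopHat2 2.1.0, HTSeq, FastQC and bcl2fastq 2.17.1.14 are named, with mm10 as the genome build, per the submitters' processing notes, which give no roles. No annotation release, strand setting or read filter is stated in the labels. Column names show the group and numbers unlike those of the labels, so each column was assigned to a group alone.

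Symbols, positions and merged exon lengths came from GENCODE M21, on the same build, and matched 42462 IDs. edgeR 4.0.16 (R 4.3.3) tested all 6 libraries with group as the only term, 4 residual degrees of freedom, TMM factors and the default filter with its minimum count of 10, which kept 13005 genes. P-values are two-sided and adjusted by Benjamini-Hochberg over all of these, and genes under 0.05 are called. The SE is the log2 fold change divided by the square root of F. CPM and TPM were computed here from the counts. Marker levels are means of log2(CPM + 0.5). The endothelial marker level leaned with group, so adjustment for it can also remove part of a group difference. The part of endothelial cells in the difference of any gene was not tested. DESeq2 1.42.0 and limma-voom (limma 3.58.1) were alternatives. The test was checked on simulated data. Every pair of libraries differed by a chi-square per degree of freedom of at least 12.56, so none was a repeat. The closest pairs were M5 and M6 (12.56) and M1 and M4 (12.58), and M1 and M4 belong to different groups. M1 was thus closer to M4 than to the room air libraries M2 (13.77) and M3 (26.92). The receptors, lists and alternatives were chosen with earlier results of these data known. Named pathway genes are up to 4 called genes per list, or the one with the smallest p, together with genes of fixed upstream roles. Calcrl, Ramp2, Adra1b, Adrb3, Pla2g4a, Il33, Inmt, Npnt, Tagln and the untested adrenergic receptors were named after their values were seen. The exclusion of M1 and M4 and the immediate early gene covariate were chosen after seeing the data. The immediate early gene level is the mean level of the CREB target list, which is also among the pathway lists.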

Additional observations from a re-analysis of the deposited data

How the results depend on the processing

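Vipr2 was called lower under all 16 other settings, and no receptor changed direction under any of them. The number of receptors called was 1 in each setting, also with each library left out, except 3 without a low count filter. There Adrb1 (edgeR adjusted p = 0.000127) and Ptger4 (0.0211) were added. Their log2 fold changes hardly moved, at 0.95 and 0.63. The SE fell from 0.40 to 0.20 for Adrb1 and from 0.27 to 0.18 for Ptger4. For Ptgs2, uneven within each group, it fell from 0.94 to 0.16, so calls of this setting carry less weight. The number of all genes called was 159, and it was 756 without the filter, 423 by DESeq2, 255 with robust dispersion and 242 with the immediate early gene covariate. It lay between 24 and 148 with 1 library left out, the lowest values being 24 without M2, 27 without M5 and 42 without M6. The number of pathway genes called was 5, and it was 23 without the filter, 8 by DESeq2 and 10 with the immediate early gene covariate. That covariate is the level of the CREB target list, itself among the pathway lists counted. The number of pathway genes called lay between 0 and 5 with 1 library left out (0 without M2, M5 or M6, and 3 without M1). Without composition factors the all-gene split was 97 higher and 75 lower, against 68 and 91 with them, and the median of all genes moved to 0.07. The directions of Gnas, Nt5e, Ptgis and Ptgs2 were unstable. Gnas was 0.0233 without composition factors. Nt5e was 0.0272 without composition factors, 0.30 with the immediate early gene covariate and between -0.53 and 0.37 with 1 library left out. Ptgis was 0.0558 without composition factors, 0.0038 with the stricter filter, 0.0161 without M1 and M4 and between -0.0728 and 0.0216 with 1 library left out. Ptgs2 was 0.0307 without composition factors, 0.86 with the immediate early gene covariate and between -1.86 and 1.74 with 1 library left out. With lengths of the longest transcript Vipr2 was still the highest receptor, in room air Ptger4 moved to 20.1 TPM and Adora2b to 2.13 TPM, and in hypercapnia Ptger4 moved to 32.5 TPM. Adora2b and Nt5e gave no value under the stricter filter. No paired analysis was possible because the columns carry no number that the labels share between groups. Adora2b, with 8 to 33 counts a library, is the receptor most limited by depth.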
